A study of Mus musculus with 6 samples.

Results

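The 10 genes described here encode the core of the G1 decision in mouse cells: the D cyclins Ccnd1, Ccnd2 and Ccnd3, their kinases Cdk4 and Cdk6, the INK4 inhibitors Cdkn2a, Cdkn2b and Cdkn2c, and the CIP/KIP inhibitors Cdkn1a and Cdkn1b. They were chosen by gene symbol, and each symbol had 1 row among the 56691 genes of the table. RNA was sequenced from KVTR cells, which the labels call isolated primary clear cell renal carcinoma cells of mouse, a kidney cancer of tubule epithelium. The groups were blank and dopamine, with 3 libraries each and no other allele or agent named. The sources used here give no dose, duration or strain and do not say that the libraries of a group came from separate cultures. A p-value here therefore reflects spread between libraries, which may not be spread between independent cultures. A single blank column names its group but no replicate and is called the unnumbered blank library. Values in triplets follow the order blank 2, blank 3, unnumbered blank (the blank set) and dopamine 1, 2, 3 (the dopamine set).

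D cyclins are made in response to growth signals and bind Cdk4 or Cdk6, and the active complex phosphorylates the retinoblastoma protein, which releases E2F factors that switch on genes of S phase. INK4 proteins bind Cdk4 and Cdk6 and block their activity, while the CIP/KIP proteins p21 (Cdkn1a) and p27 (Cdkn1b) inhibit cyclin-bound Cdk2. Cdkn1a is a classical target of the tumour suppressor p53, and Cdkn2a also encodes, from another start and reading frame, the p53 activator p19Arf. In renal carcinoma, Ccnd1 is known as a gene raised after loss of the von Hippel-Lindau protein.

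Libraries were counted at 16771499 to 23375622 reads. The unnumbered blank library and dopamine 1 stood apart from the other 4 in several of the results below. Genes of mitosis and S phase were abundant in the unnumbered blank library: the summed level of 24 listed G2 and M phase genes was 788 CPM (counts relative to library size, scaled by TMM factors) there and 60.6 to 98.5 CPM in the other 5, and that of 24 S phase genes was 1148 CPM against 252 to 319 CPM. Markers did not bear out the cell type of the labels. Of 15 listed markers of renal epithelium and its carcinoma, 6 stayed below 1 CPM in each library, the renal lineage factor Pax8 reached 1.14 CPM at most, and Lrp2, an endocytic receptor, made up most of their summed level, which was 101 to 253 CPM for blank and 105 to 411 CPM for dopamine. Of 10 listed astrocyte markers, 9 were at 1 CPM or more in each library. The 10 astrocyte markers summed to 6710, 2293 and 1133 CPM in the blank set and to 1136, 5525 and 4699 CPM in the dopamine set. Of 10 fibroblast and pericyte markers, 9 were likewise at 1 CPM or more in each library. These 10 markers summed to 2502 to 3693 CPM for blank and 783 to 3556 CPM for dopamine, with dopamine 1 lowest. Of 10 leukocyte markers, 7 stayed below 1 CPM in each library, Cd3e had 0 counts, and the sum of the 10 was 35.6 to 80.2 CPM for blank and 86.2 to 171 CPM for dopamine, ranges that did not overlap. By gene, 4 of the 10 were tested and 1 of these had no overlap between groups, where 8.48% of all tested genes had none. Endothelial markers (6) summed to 69.0 to 212 CPM for blank and 32.2 to 69.8 CPM for dopamine. The part of these differences in the results below was not tested. In bulk RNA, fewer cells of a kind and less RNA per cell cannot be told apart.

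None of the 10 genes passed the threshold in edgeR's quasi-likelihood test (Benjamini-Hochberg adjusted p = 0.9996 for each), where 0 of 15420 genes tested passed (0%). At an unadjusted p under 0.05 there were 0 members, against 454 genes (2.94%), and for 0 members did the 3 dopamine values lie outside the 3 blank values, against 1307 genes (8.48%). All 10 members passed the filter on low counts. The fold change lay on the higher side for 4 members and the lower side for 6, with a median log2 fold change of -0.09 beside 0.01 over all genes tested. The members' median rested on single libraries: it was -0.30 without blank 2 and -0.017 without the unnumbered blank library, and in the 4 libraries numbered 2 and 3 it turned to 0.070. DESeq2 called 21 genes (0.091% of the 23076 with an adjusted p), and 0 members were among them.

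**Figure D1:**
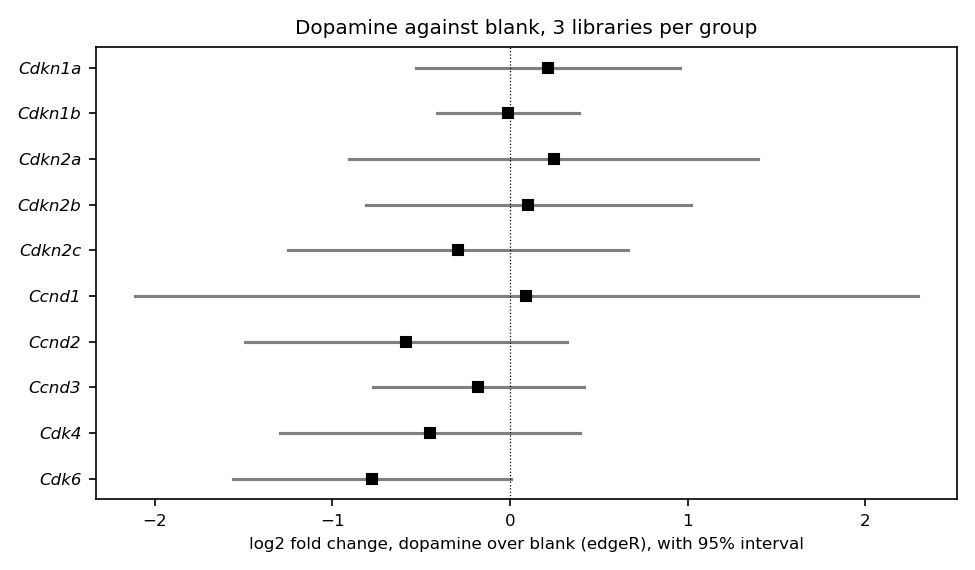
Log2 fold change of each gene, dopamine over blank, by edgeR's quasi-likelihood test with 3 libraries per group. Squares are the estimates and lines the 95% intervals. Each interval includes 0, that of Cdkn1b is the narrowest (-0.41 to 0.39) and that of Ccnd1 the widest (-2.11 to 2.30).

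The genes spanned a wide range of abundance per length. In FPKM (reads scaled by exonic length and by the library total, with no TMM factor), the blank libraries averaged 297 ± 314 for Ccnd1, 233.5 ± 26.8 for Cdkn1a, 170.6 ± 79.5 for Ccnd2 and 122 ± 46.7 for Cdkn2b (SD, n = 3). Below these came Cdkn2a at 52.3 ± 32.6, Cdk4 at 39.6 ± 21.1, Cdkn1b at 16.8 ± 1.01, Ccnd3 at 16.2 ± 2.48, Cdkn2c at 3.44 ± 1.59 and Cdk6 at 3.37 ± 1.49 FPKM (SD, n = 3). Each of the first 4 differed from the next among them by less than the larger SD, as did Cdkn2a from Cdk4, Cdkn1b from Ccnd3 and Cdkn2c from Cdk6. Cdkn2b was above Cdkn2a by more than either SD, but not in blank 3, where Cdkn2a was at 87.2 and Cdkn2b at 85.0 FPKM. Cdk4 was above Cdkn1b in each of the 6 libraries (lowest 23.9 FPKM, highest Cdkn1b 17.6 FPKM), and Ccnd3 was above Cdkn2c (lowest 10.1 FPKM, highest Cdkn2c 5.27 FPKM). In dopamine libraries the order of the means was the same except that Cdkn2b (127 ± 38.2 FPKM) stood above Ccnd2 (109.8 ± 32.9 FPKM).

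**Figure D2:**
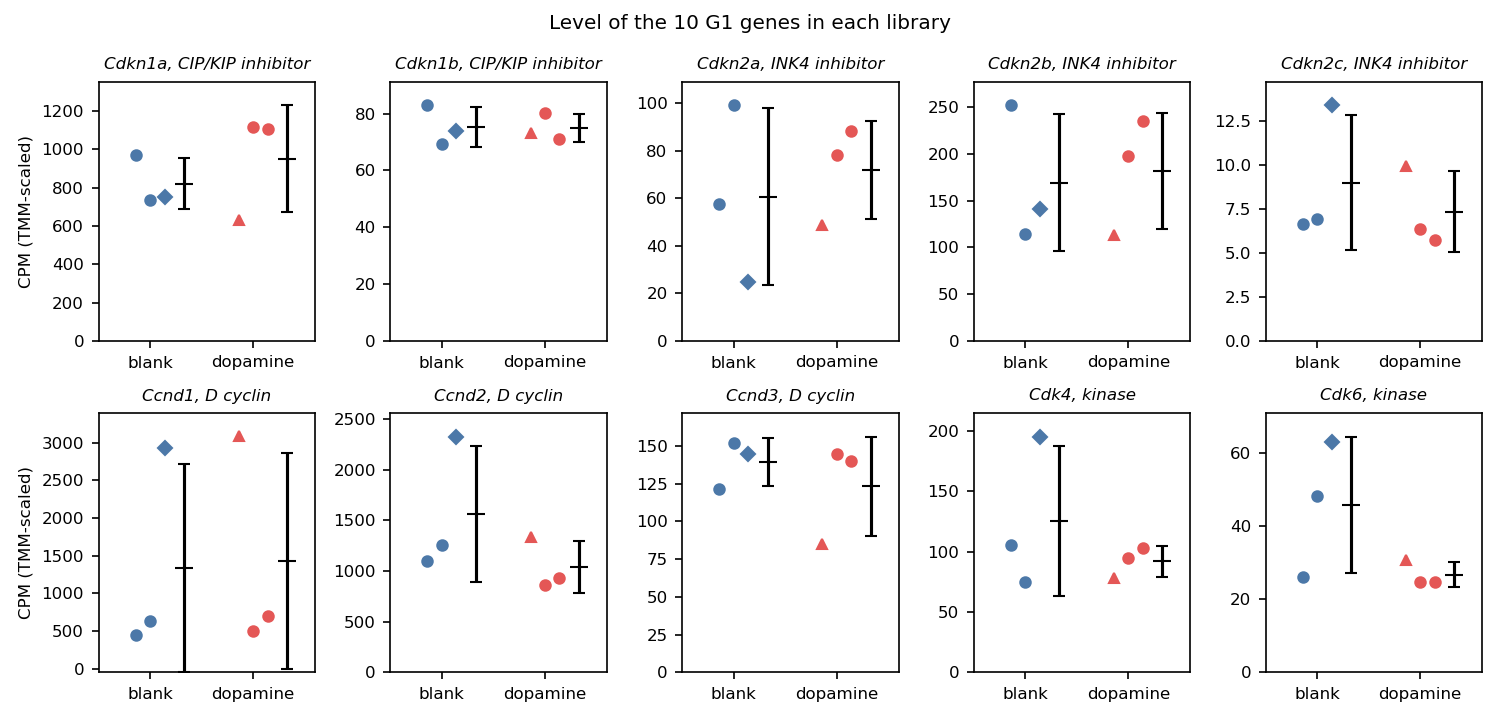
TMM-scaled CPM of each gene in each library (blue, blank; red, dopamine; the diamond is the unnumbered blank library and the triangle dopamine 1), with the group mean and SD (n = 3) in black. The groups overlap for each gene, and for Ccnd1 the diamond (2933 CPM) and the triangle (3085 CPM) lie far above the other 4 libraries.

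Among the D cyclins, Ccnd1 (ENSMUSG00000070348, chromosome 7, 144483668 to 144493662, minus strand, GRCm39 as for all genes below) was high in 1 library of each group. It stood at 454, 633 and 2933 CPM in the blank set and at 3085, 501 and 703 CPM in the dopamine set. The unnumbered blank library held 5.39-fold the mean of the other blank libraries, and dopamine 1 held 5.12-fold the mean of the other dopamine libraries. The group means were close, at 1340.1 ± 1382 and 1430 ± 1437 CPM (SD, n = 3), with a log2 fold change of 0.09 ± 0.93 SE and a 95% interval from 0.23-fold to 4.91-fold. Of the genes tested, 88.0% had a smaller range over the 6 libraries. Within the libraries that carry the same number, dopamine 2 held 1.10-fold the level of blank 2 and dopamine 3 held 1.11-fold that of blank 3. The sign of the fold change turned with the library left out: it was -1.16 without dopamine 1 and 1.40 without the unnumbered blank library.

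Ccnd2 (ENSMUSG00000000184, chromosome 6, 127102125 to 127129156, minus strand), the D cyclin often abundant in neural and haematopoietic cells, was highest in the unnumbered blank library. Its levels were 1098, 1261 and 2325 CPM in the blank set and 1334, 857 and 931 CPM in the dopamine set. Dopamine 1 lay above 2 of the blank libraries, and dopamine 2 and 3 lay below all 3. The log2 fold change was -0.58 ± 0.38 SE (95% interval -1.49 to 0.32). It was -0.80 without dopamine 1 and -0.18 without the unnumbered blank library, the ends of the range over libraries left out. The ratio of dopamine 2 to blank 2 was 0.781 and that of dopamine 3 to blank 3 was 0.738.

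Ccnd3 (ENSMUSG00000034165, chromosome 17, 47815976 to 47910616, plus strand) varied less. It was at 121, 152 and 145 CPM in the blank set and at 85.2, 144 and 139.9 CPM in the dopamine set. Dopamine 1 was below each of the other 5, which spanned 121 to 152 CPM. The log2 fold change was -0.18 ± 0.25 SE, and without dopamine 1 it was 0.029. Ccnd3 shares 361 bases with Bysl on the opposite strand, a ribosome assembly gene with 309 to 1101 reads per library.

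No share within the D cyclins separated the groups. Per length, Ccnd1 made up 42.5%, 47.1% and 70.3% of summed D cyclin FPKM in the blank set, and 81.2%, 49.7% and 56.5% in the dopamine set. Ccnd2 made up 51.4%, 46.9% and 27.9% in the blank set and 17.6%, 42.6% and 37.5% in the dopamine set. Ccnd3 stayed between 1.20% and 7.69%. The sum itself was 937 FPKM in the unnumbered blank library and 840.2 FPKM in dopamine 1, against 207.5 to 295 FPKM in the other 4.

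**Figure D3:**
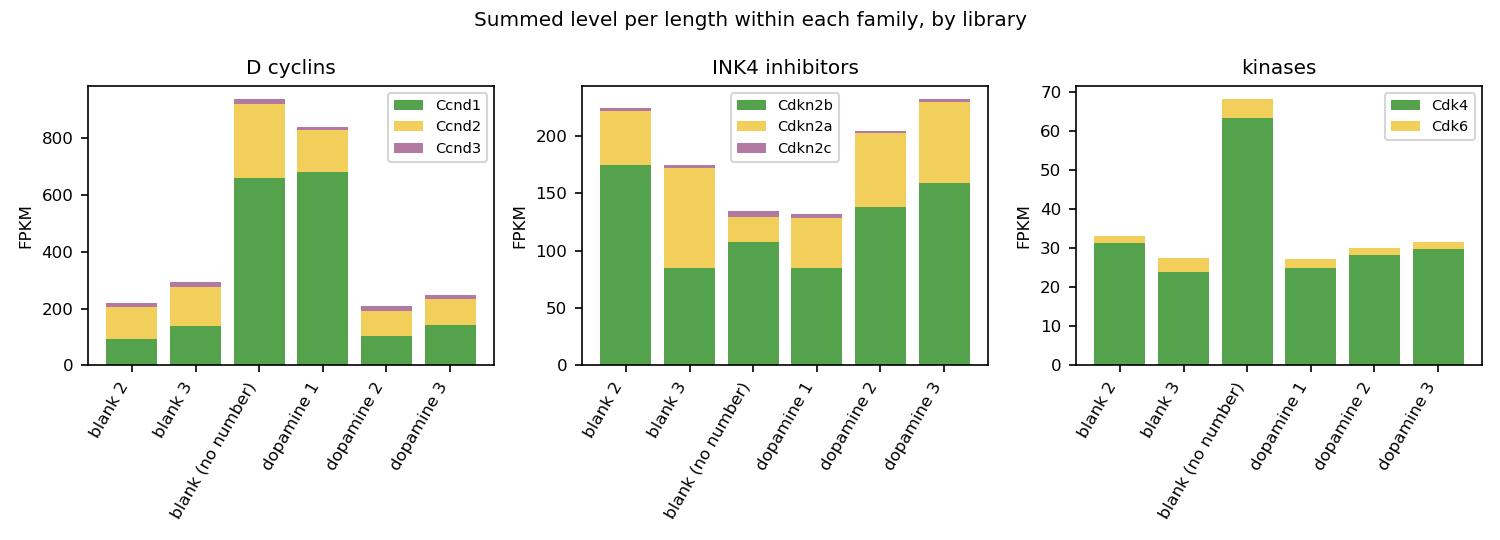
FPKM of the D cyclins, the INK4 inhibitors and the kinases in each library, stacked by gene within each family, on separate scales. The D cyclin sum is highest in the unnumbered blank library (937 FPKM) and dopamine 1 (840.2 FPKM), whereas the kinase sum is high in the unnumbered blank library alone (68.3 FPKM against 27.2 to 33.1 FPKM).

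Of the kinases, Cdk4 (ENSMUSG00000006728, chromosome 10, 126899403 to 126903789, plus strand) was the more abundant throughout. It was at 106, 75.2 and 195 CPM in the blank set and at 77.8, 94.8 and 103 CPM in the dopamine set. The unnumbered blank library was the highest, at 2.16-fold the mean of the other blank libraries, and the remaining 5 spanned 75.2 to 106 CPM. Dopamine 1, although also rich in Ccnd1, was not high in Cdk4. With dopamine over blank, the log2 fold change was -0.45 ± 0.36 SE, and it was 0.025 without the unnumbered blank library. Cdk4 overlaps 641 bases of Tspan31 on the opposite strand, a tetraspanin gene with 1904 to 2898 reads per library; the kit does not mark strand, so reads from the shared bases cannot be told apart.

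Cdk6 (ENSMUSG00000040274, chromosome 5, 3391485 to 3581008, plus strand) gave the smallest p of the 10 genes (unadjusted p = 0.0511, adjusted p = 0.9996, edgeR). Its levels were 26.1, 48.3 and 63.1 CPM in the blank set and 30.8, 24.8 and 24.6 CPM in the dopamine set. The dopamine values spanned 24.6 to 30.8 CPM, and blank 2 lay among them. Between groups the log2 fold change was -0.78 ± 0.33 SE, with a 95% interval from -1.56 to 0.0047. It was negative under each of the 14 alternatives run for this gene, from -1.07 to -0.48. The unadjusted p fell under 0.05 by DESeq2 (0.0493). By edgeR it did so with RLE scaling factors (0.0499), with no filter on low counts (0.0262) and without blank 2 (0.0055). In each of these the adjusted p was 0.8998 or more, and in the other alternatives the unadjusted p stayed above 0.05. Cdk4 made up 94.6%, 87.0% and 93.0% of the kinase FPKM in the blank set, and 91.6%, 94.3% and 94.7% in the dopamine set.

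The Cdk4 promoter is shown because 4 copies of the E box, the site bound by Myc and other basic helix-loop-helix factors, lie in its 300 bases. The sequence is from RefSeq (GRCm38.p6, plus strand, chr10:127063285-127063584, 250 bases before to 50 after the gene's start), with each E box (CACGTG, which reads the same on both strands) in capitals.
Cdk4: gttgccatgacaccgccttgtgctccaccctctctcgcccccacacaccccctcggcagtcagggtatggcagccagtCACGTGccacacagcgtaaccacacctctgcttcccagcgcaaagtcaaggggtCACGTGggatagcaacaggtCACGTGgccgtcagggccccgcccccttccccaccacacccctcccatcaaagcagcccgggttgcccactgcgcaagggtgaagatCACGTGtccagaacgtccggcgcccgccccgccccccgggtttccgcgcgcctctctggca

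At least 1 E box was found in 7.15% of 32851 promoter windows of this length, and 4 or more in 8 windows (0.0244%). The cut of 4 is the count of the Cdk4 window itself, so this share was not set independently of it. A match describes the letters alone. Myc, named after its values were seen, was at 13.3, 19.1 and 42.5 CPM in the blank set and at 31.0, 13.5 and 11.3 CPM in the dopamine set. A link between Myc and the level of Cdk4 was not tested.

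Among the INK4 genes, Cdkn2b and Cdkn2a held nearly all of the summed level. Cdkn2b (ENSMUSG00000073802), which encodes p15Ink4b, an inhibitor induced by TGF-beta, was at 252, 115 and 141 CPM in the blank set and at 113, 198 and 235 CPM in the dopamine set. Blank 2 was the highest and dopamine 1 the lowest, and the groups overlapped across most of their range. Its log2 fold change was 0.10 ± 0.39 SE. It had no stable sign, running from -0.12 without dopamine 3 to 0.49 without blank 2. Libraries with the same number went opposite ways: dopamine 2 held 0.784-fold the level of blank 2 and dopamine 3 held 2.05-fold that of blank 3.

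Cdkn2a (ENSMUSG00000044303) was lowest in the library richest in mitotic transcripts. It stood at 57.5, 99.1 and 24.9 CPM in the blank set and at 48.7, 78.3 and 88.3 CPM in the dopamine set. The unnumbered blank library held 0.318-fold the mean of the other blank libraries, and dopamine 1 was the next lowest. For this gene the log2 fold change was 0.25 ± 0.49 SE and -0.12 without the unnumbered blank library. Counts are per gene, so the transcripts of p16Ink4a and p19Arf, which share exons, are summed in these values.

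Cdkn2c (ENSMUSG00000028551, chromosome 4, 109518073 to 109524386, minus strand), which encodes p18Ink4c, was the least abundant of the inhibitors. It stood at 6.64, 6.94 and 13.4 CPM in the blank set and at 9.96, 6.35 and 5.72 CPM in the dopamine set, from 115 to 280 reads. The unnumbered blank library and dopamine 1 were the highest, as they were for Ccnd2. With dopamine over blank, the log2 fold change was -0.29 ± 0.40 SE and 0.11 without the unnumbered blank library.

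Shares within the INK4 genes were closest among the dopamine libraries. Cdkn2a made up 32.8%, 31.6% and 30.6% of INK4 FPKM in the dopamine set, and 21.1%, 49.9% and 16.7% in the blank set. Cdkn2b took 64.3% to 68.5% in dopamine and 48.6% to 79.4% in blank libraries. Whether the spread differs between groups was not tested.

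Cdkn2a and Cdkn2b are neighbours on chromosome 4 of the deposited table (GRCm39), at 89192708 to 89212890 and 89224536 to 89229276 on the minus strand, and the windows around their starts are shown because the counts sum the transcripts from both Cdkn2a starts. The RefSeq sequences (GRCm38.p6, minus strand) are chr4:89294570-89294869 and chr4:89282143-89282442 for Cdkn2a, whose starts lie 12427 bases apart, and chr4:89310983-89311282 for Cdkn2b. Capitals mark GC boxes (GGGCGG, searched on both strands) in Cdkn2a, and in Cdkn2b a cyclic AMP response element (TGACGTCA, both strands), which begins 46 bases before the start.
Cdkn2a, first start: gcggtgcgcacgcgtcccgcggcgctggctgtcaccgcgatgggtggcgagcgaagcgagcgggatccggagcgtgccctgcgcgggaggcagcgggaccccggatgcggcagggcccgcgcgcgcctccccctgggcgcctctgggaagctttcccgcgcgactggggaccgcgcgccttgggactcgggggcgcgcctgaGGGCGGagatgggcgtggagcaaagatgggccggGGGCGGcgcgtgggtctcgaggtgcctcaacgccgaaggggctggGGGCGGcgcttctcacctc
Cdkn2a, second start: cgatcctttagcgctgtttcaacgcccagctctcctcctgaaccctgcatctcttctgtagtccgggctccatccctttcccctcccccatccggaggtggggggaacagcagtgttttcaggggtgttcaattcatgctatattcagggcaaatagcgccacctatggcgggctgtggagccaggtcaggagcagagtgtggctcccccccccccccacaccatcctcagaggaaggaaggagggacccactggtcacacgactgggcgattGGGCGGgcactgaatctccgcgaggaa
Cdkn2b: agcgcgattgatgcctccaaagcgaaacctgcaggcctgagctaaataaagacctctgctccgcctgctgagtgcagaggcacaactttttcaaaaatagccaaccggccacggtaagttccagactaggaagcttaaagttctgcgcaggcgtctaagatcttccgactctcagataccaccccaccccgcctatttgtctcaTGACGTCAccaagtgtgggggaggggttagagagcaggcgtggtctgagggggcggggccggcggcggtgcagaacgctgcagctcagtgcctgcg

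The cyclic AMP element was present in 1.79% of the 32851 windows and, of the 12 windows found for 8 of the members, in that of Cdkn2b alone. GC boxes were present in 35.7% of all windows and in 9 of these 12. The first Cdkn2a window held 77.0% G and C and 3 GC boxes, and the second 60.3% and 1. Cdkn2b is overlapped on the opposite strand by the predicted gene Gm12610 over 4741 bases, its whole span, but Gm12610 had only 25 to 58 reads per library.

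Of the CIP/KIP genes, Cdkn1a was the more abundant and Cdkn1b the most even. Cdkn1a (ENSMUSG00000023067, chromosome 17, 29309950 to 29319701, plus strand) stood at 972, 733 and 753 CPM in the blank set and at 629, 1119 and 1106 CPM in the dopamine set. Dopamine 2 and 3 lay above each blank library, whereas dopamine 1 lay below each. Between groups the log2 fold change was 0.22 ± 0.31 SE (95% interval -0.53 to 0.96). It was positive under each of the 14 alternatives, from 0.07 to 0.44, the latter without dopamine 1. In libraries of the same number, dopamine 2 held 1.15-fold the level of blank 2 and dopamine 3 held 1.51-fold that of blank 3.

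Cdkn1b (ENSMUSG00000003031, chromosome 6, 134897364 to 134902476, plus strand) was at 83.0, 69.2 and 74.0 CPM in the blank set and at 73.3, 80.3 and 70.9 CPM in the dopamine set. Its highest library held 1.20-fold the level of its lowest, and only 1.09% of tested genes had a smaller range. Its log2 fold change was -0.01 ± 0.17 SE, with a 95% interval from 0.75-fold to 1.31-fold. The library rich in mitotic transcripts, at 74.0 CPM, lay within the range of the other 5. As background, p27 is known to be controlled largely at the protein level.

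The upstream Cdkn1a start is shown because its window holds a p53 element. The sequence is from RefSeq (GRCm38.p6, plus strand, chr17:29090729-29091028), 2790 bases before the other annotated start. Capitals mark the element, a pair of adjoining 10-base sites that was allowed 1 mismatch outside the cores (an allowance chosen after the sequence was seen), and it begins 51 bases before this start.
Cdkn1a, upstream start: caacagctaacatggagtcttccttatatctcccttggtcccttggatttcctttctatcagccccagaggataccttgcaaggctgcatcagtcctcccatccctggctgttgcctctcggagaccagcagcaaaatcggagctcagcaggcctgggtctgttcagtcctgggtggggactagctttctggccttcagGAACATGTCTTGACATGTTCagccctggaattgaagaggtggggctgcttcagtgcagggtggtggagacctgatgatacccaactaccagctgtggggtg

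Such an element was found in 18 of the 32851 windows (0.0548%) and, of the 12 member windows, in this one alone. The match says nothing of whether p53 bound there. Trp53, which encodes p53, was at 75.5, 58.8 and 131 CPM in the blank set and at 49.5, 85.9 and 89.8 CPM in the dopamine set. Mdm2, the ligase that degrades p53 and itself a p53 target, was at 385, 483 and 376 CPM in the blank set and at 547, 325 and 353 CPM in the dopamine set. In dopamine 1 Mdm2 was highest and Cdkn1a lowest, and a link of p53 to either level was not tested. Of 30 listed genes of the p53 response, all tested, 0 passed edgeR's threshold and 2 had an unadjusted p under 0.05, a threshold that 2.94% of all tested genes met. These were Eda2r, a death receptor of the TNF receptor family (63.0 to 82.1 CPM with dopamine, 96.9 to 121 CPM without, log2 fold change -0.60 ± 0.19 SE, adjusted p = 0.9996 by edgeR), and Apaf1, the scaffold of the apoptosome (-0.64 ± 0.26 SE). The list had 9 members on the higher side, of which Sesn1 (0.49 ± 0.26 SE) and Ddit4 (0.65 ± 0.53 SE) had the smallest p. The groups did not overlap for 4 of the 30, all lower with dopamine. Of all 15420 genes tested, 690 were lower without overlap and 617 higher without overlap (8.48% in either direction). The list's median was -0.11, beside 0.01 over all genes tested. Without blank 3 it was 0.021, with 15 genes on each side.

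Ratios that include Ccnd1 set apart the libraries high in Ccnd1, so they largely restate its values and are no separate evidence. The sum of D cyclin FPKM was 6.94-fold the sum of INK4 FPKM in the unnumbered blank library and 6.36-fold in dopamine 1, and 0.975-fold to 1.68-fold in the other 4. Cdkn1a stood at 0.340-fold and 0.270-fold the FPKM of Ccnd1 in these libraries and at 1.53-fold to 2.96-fold in the others. The ratio of D cyclin to kinase FPKM was 6.61, 10.7 and 13.7 in the blank set and 30.9, 6.91 and 7.90 in the dopamine set. The ratio of INK4 to kinase FPKM, which leaves Ccnd1 out, was lowest in the unnumbered blank library (1.98) and ran from 4.85 in dopamine 1 to 7.37 in dopamine 3. None of these ratios separated the groups. These are ratios of transcript levels and carry no measure of protein or of kinase activity.

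**Figure D4:**
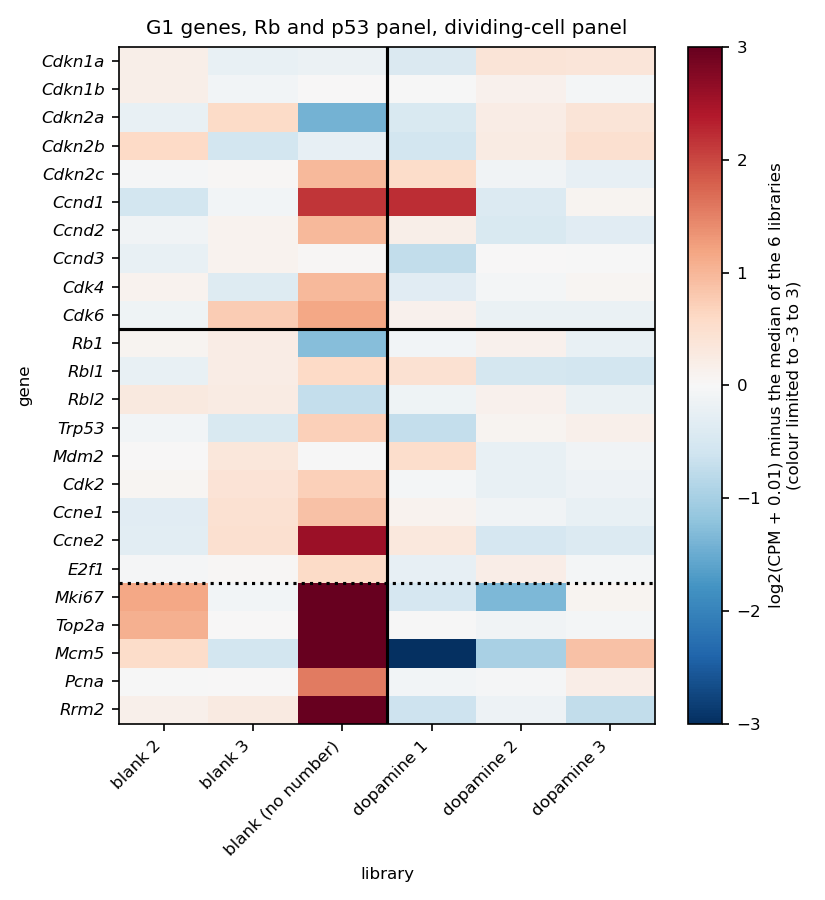
Log2(CPM + 0.01) of the 10 genes (top), a panel of Rb, p53 and G1/S genes (middle) and a panel of dividing cells (bottom), minus the median of the 6 libraries, with colours limited to -3 and 3. Ccnd1 is high in the unnumbered blank library and dopamine 1, while Mki67, Top2a, Mcm5, Pcna and Rrm2 are high in the unnumbered blank library alone, at 39.9 to 147 CPM against 0.17 to 47.9 CPM elsewhere.

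Downstream of the D cyclin kinases, the Rb family split by gene. Rb1, the retinoblastoma gene, was at 243, 268 and 95.6 CPM in the blank set and at 218, 251 and 198 CPM in the dopamine set. Rbl2 (p130) was also lowest in the unnumbered blank library, at 48.1 CPM against 68.7 to 96.7 CPM elsewhere. Rbl1 (p107), a gene that E2F factors switch on, was highest there, at 26.4 CPM, close to dopamine 1 at 23.8 CPM. The log2 fold changes between groups were 0.14 ± 0.38 SE, -0.06 ± 0.29 SE and -0.37 ± 0.37 SE.

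Genes of the next step were highest in the same blank library. Ccne1 and Ccne2, the E cyclins that activate Cdk2, stood at 38.0 and 31.9 CPM there and at 16.2 to 28.2 and 3.79 to 7.58 CPM in the other 5. Cdk2 was at 16.5, 21.0 and 25.9 CPM in the blank set and at 15.1, 13.5 and 14.2 CPM in the dopamine set, with each dopamine value below each blank value (log2 fold change -0.57 ± 0.24 SE, unadjusted p = 0.0525, adjusted p = 0.9996 by edgeR). E2f1 was highest in that library too, at 45.5 CPM against 25.5 to 34.6 CPM elsewhere.

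Of the 32 listed G1 genes outside the 10, 31 were tested, 0 passed edgeR's threshold and 1 had an unadjusted p under 0.05. Over all tested genes, 2.94% met that unadjusted threshold. The 1 listed gene was Ccna2, an S and M phase cyclin, with 34.8 CPM in the unnumbered blank library against 0.63 to 2.66 CPM in the other 5 (log2 fold change -3.83 ± 1.23 SE). The list had 8 genes on the higher side, among them the CIP/KIP inhibitor Cdkn1c (0.67 ± 0.45 SE) and Ccnh, the cyclin of the Cdk-activating kinase (0.29 ± 0.20 SE), and 23 on the lower, with a median of -0.13 beside 0.01 over all genes tested. Of the 32, 19 were highest in the unnumbered blank library, but the share of all tested genes highest there was not counted. Without that library 15 of 31 were on the higher side and the median was -0.0026. Groups did not overlap for 3 of the 31 tested, Ccnh higher and Cdk2 and Ccna2 lower with dopamine, where 8.48% of all tested genes had no overlap.

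Of the genes of dividing cells, edgeR called 0 of 24 for S phase and 0 of 24 for G2 and M phase, with 4 and 15 at an unadjusted p under 0.05, all lower with dopamine, and DESeq2 called 4 of the G2 and M list. Over all genes these shares were 2.94% at that unadjusted p and 0.091% by DESeq2. The medians were -1.04 and -2.69, and -0.33 and -0.63 without the unnumbered blank library, which was the highest for each of these genes. Without it, 17 S phase and 20 G2 and M genes lay on the lower side, and 7 and 4 on the higher. With all 6 libraries, groups did not overlap for 5 and 7 genes, all lower with dopamine. Of all 15420 genes tested, 690 were lower without overlap. DESeq2 gave no p for Mcm5, Mcm6, Rrm2, Cdc6 and Cdc45 of the S phase list, so it could not call them.

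Regulators of the INK4 locus gave 0 calls among 26 tested by edgeR, with 0 at an unadjusted p under 0.05 and a median of 0.12, which was -0.039 without dopamine 1. Polycomb group proteins and their partners silence this locus in young dividing cells. By the smallest p on each side, the genes named were Id1, an inhibitor of basic helix-loop-helix factors (0.48 ± 0.24 SE), and Zbtb7a, a repressor of p19Arf transcription (0.36 ± 0.25 SE), both on the higher side, and the TGF-beta effector Smad2 (-0.30 ± 0.26 SE) and the histone demethylase Kdm2b (-0.36 ± 0.37 SE) on the lower. DESeq2 called 0 genes of this list, of the p53 list and of the wider G1 list. It gave no p for Ccna2 and E2f8 of the wider G1 list, so these could not be called.

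The genes whose profile over the 6 libraries was most like that of each member were named by the smallest root mean square difference of centred log2 CPM, among 9811 genes. With Ccnd1 these were Phlda1, an immediate growth-factor response gene (a difference of 0.16), and Olig2, a transcription factor of oligodendrocyte precursors (0.19). Olig2 reached 111 CPM in that blank library and 142 CPM in dopamine 1, against 21.8 to 24.2 CPM in the other 4. With Ccnd2 they were Ddias (0.07) and Mdc1 (0.08), with Cdk4 Rai14 (0.08) and Mbd3 (0.10), and with Cdk6 Ccne1 (0.15) and Itgb1 (0.15). With Cdkn1a they were Map2k5 (0.04) and Supt7l (0.04), with Cdkn1b Zbtb44 (0.03) and Trip4 (0.04), and with Ccnd3 Jup (0.07) and Septin5 (0.08). With Cdkn2a they were Fads3 (0.18) and Gstm2 (0.18), with Cdkn2b Sox6 (0.10) and Parn (0.11), and with Cdkn2c Plp2 (0.08) and Xpo4 (0.08). Among the members themselves, the closest pair was Ccnd2 and Cdkn2c (0.17), and the farthest was Ccnd1 and Cdkn2a (1.72). These are descriptions over 6 libraries.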

How the data were processed

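The deposited table gives a raw read count per Ensembl gene and library and an FPKM value, per the file headers. Coordinates are on GRCm39, per the submitters' processing notes, while the aligner, counter and strand setting were not given in the sources used here. Per the labels' protocols, SMART-Seq HT cDNA was sequenced as 150 bp pairs. Count columns were matched to samples by name, and 1 blank column carries no number. FPKM was recomputed from the counts and the exonic gene sizes, and 40 deposited FPKM values of the members in 4 columns differed from it by at most 0.245%; 2 further per-library columns were not used.

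Counts were tested with edgeR 4.0.16 in R 4.3.3 (filterByExpr, TMM factors, quasi-likelihood test, 2-sided, no covariate, Benjamini-Hochberg over 15420 genes, threshold 0.05). The SE was taken as |log2 fold change| over the root of the F statistic. DESeq2 1.42.0 and limma 3.58.1 on log2(FPKM + 1) were alternatives. The steps were also run on simulated counts in which no library stood apart. That run does not cover data with libraries such as the unnumbered blank and dopamine 1. The members and the gene lists were chosen with earlier results of these data known. Named genes were all 10 members, a fixed panel, and for each list the genes past the threshold or, with none, the 2 of smallest p in each direction; Myc, E2f7 and E2f8 were added after their values were seen. Nearest genes needed a mean of at least 10 CPM and a name other than a predicted one. Promoter windows came from RefSeq (GRCm38.p6) for 8 members, a build other than that of the table. No molecular identifiers are named in the labels, so reads are not independent molecules. FPKM of a gene was averaged per group with its SD.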

Additional observations from a re-analysis of the deposited data

How the results depend on the processing

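The count of members called was 0 under each of the 14 alternatives, as was that of the wider G1 list. DESeq2 gave no p for Ccna2 and E2f8 of that list. The count over all genes was 0 except 21 by DESeq2 (5 higher). Numbers 2 and 3 occur in both groups among the columns, and deviations of same-numbered libraries correlated at -0.0886 over genes. With these numbers alone that is a single contrast, which cannot settle whether the numbers pair the samples. The main test took no pairing, and the same-number ratios given for some genes above are descriptions only. In these 4 libraries the replicate block gave 0 calls, with 1122 genes at an unadjusted p under 0.05 against 1403 without it. There the median of the members was 0.0998 with the block and 0.070 without, and the sign turned for Ccnd3 (0.064 with the replicate block, 0.055 without) and Cdk4 (0.15 and 0.13). Leaving out 1 library at a time, log2 fold changes ran from -0.076 to 0.054 for Cdkn1b, -0.12 to 0.80 for Cdkn2a, -0.12 to 0.49 for Cdkn2b, -0.58 to 0.11 for Cdkn2c, -1.16 to 1.40 for Ccnd1, -0.32 to 0.029 for Ccnd3 and -0.71 to 0.025 for Cdk4, each changing sign, and the cause was not tested. Cdkn1a, Ccnd2 and Cdk6 kept their sign in all 14. At a mean of at least 10 CPM, Cdkn2c was not tested. Over these alternatives the smallest adjusted p of a member was 0.565 (Cdk6). Group means followed single libraries: the mean of Ccnd1 was 544 CPM in place of 1340.1 for blank without the unnumbered library, and 602 in place of 1430 CPM for dopamine without dopamine 1. With 3 libraries a group, the interval for Ccnd1 spans 0.23-fold to 4.91-fold.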

Other observations

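A pair of E2F family repressors, named after their values were seen, was unequal between libraries. E2f8 reached 30.4 CPM in the blank library without a number and 0.045 to 2.40 CPM in the other 5, while E2f7 was at 10.2 CPM there and 0.044 to 0.91 CPM elsewhere. Both are known as genes that E2F factors switch on in late G1 and that then dampen E2F output. E2f7 did not pass the filter on low counts used for edgeR. By DESeq2 its log2 fold change was -3.87 (unadjusted p = 0.00071, adjusted p = 0.273). E2f8 gave a log2 fold change of -3.54 (edgeR adjusted p = 0.9996).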
